A study of Mus musculus with 12 samples.

Results

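The genes of MHC class I presentation and peptide loading were followed through tumor and liver of mice given an antibody that joins T cells to HER2-bearing cells. The set holds 10 genes, found by symbol among the 52636 gene identifiers of the count table: the classical heavy chains H2-K1 and H2-D1, the light chain B2m, the nonclassical heavy chain H2-T23, the peptide transporter subunits Tap1 and Tap2, the loading factors Tapbp and Tapbpl, the trimming peptidase Erap1 and the transcriptional activator Nlrc5. All 10 were found once each and passed the filter on low counts in each comparison.

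Bulk RNA was sequenced from dissociated tumor and liver of female wild-type FVB/NJ mice. Each mouse carried a transplanted piece of Fo5 tumor in a mammary fat pad, a mammary tumor of a transgenic founder in which the MMTV promoter, active in mammary epithelium, drives HER2. The T cell-dependent bispecific antibody (TDB), anti-HER2 on one arm and anti-CD3 on the other, was given once into the tail vein at 5 mg/kg, and the control mice received the same volume of its buffer. The 4 groups of 3 libraries are tumor TDB, tumor vehicle, liver TDB and liver vehicle, all taken 24 h after the injection from mice whose tumors averaged about 350 to 500 mm3 at enrolment. The sources used here give neither the age of the mice nor which mouse a library number stands for. The design text counts 3 mice for each treatment.

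Class I molecules display peptides of the cell's own proteins to CD8 T cells. The proteasome cuts the peptides, the TAP1 and TAP2 subunits carry them into the endoplasmic reticulum, ERAP1 trims them, and tapasin (from Tapbp) with calreticulin and ERp57 loads them on the heavy chain bound to beta-2-microglobulin. Interferon-gamma, a cytokine of activated T and NK cells, is known to raise these genes through IRF1 and NLRC5, and hepatocytes and many tumors are known for low class I levels at rest.

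Total counts were 20796764 to 29396324 per tumor library and 18460159 to 25542980 per liver library. Levels are counts scaled to library size with TMM (CPM), given as mean ± SD with n = 3 libraries per group. Mammary epithelium markers summed to 14205 to 16768 CPM in tumor libraries against 382 to 881 CPM in liver libraries, and hepatocyte markers to 0.0602 to 24.1 CPM in tumor against 139838 to 261035 CPM in liver. The library liver TDB 3 stood apart from the other liver libraries: its score on the first principal component was 97.1, against -61.8 to 6.01 in the others, and 2.05% of its counts came from mitochondrial genes, against 0.847% to 1.28%. The liver and interaction tests of the 10 genes are given with and without it. FVB/NJ mice carry another H2 haplotype (q) than the reference strain C57BL/6J (b), and the effect of that on the counts of H2 genes was not tested.

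In tumor, all 10 genes rose with TDB, by 2.31 to 7.15 on the log2 scale, with a median of 2.91. In edgeR's quasi-likelihood fit, with p-values adjusted by Benjamini and Hochberg over all genes, 10 of 10 had an adjusted p under 0.05, where 15.8% of the 15454 genes tested were called higher and 13.1% lower, and the median change of all genes was -0.02. Of the called tumor genes, 41.0% were higher under upper quartile scaling and 54.7% under TMM, and the 10 class I genes were called higher under both. In no gene did a tumor TDB library fall to the level of a tumor vehicle library, a separation found upward in 18.1% and downward in 30.8% of all genes tested. In liver, 4 of 10 passed the same test (Tap1, Tap2, Tapbp and Tapbpl), none was called lower, and the median change of the 10 was 1.33, where 0.513% of 13657 genes were called higher, 0.022% were called lower and the median of all genes was 0.04. Liver TDB libraries lay above all liver vehicle libraries for 8 of 10 genes, where 8.53% of all genes tested lay apart upward and 6.22% downward, and the groups overlapped for H2-K1 and H2-T23. The common biological coefficient of variation was 13.0% in the tumor fit and 32.3% in the liver fit.

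**Figure D1:**
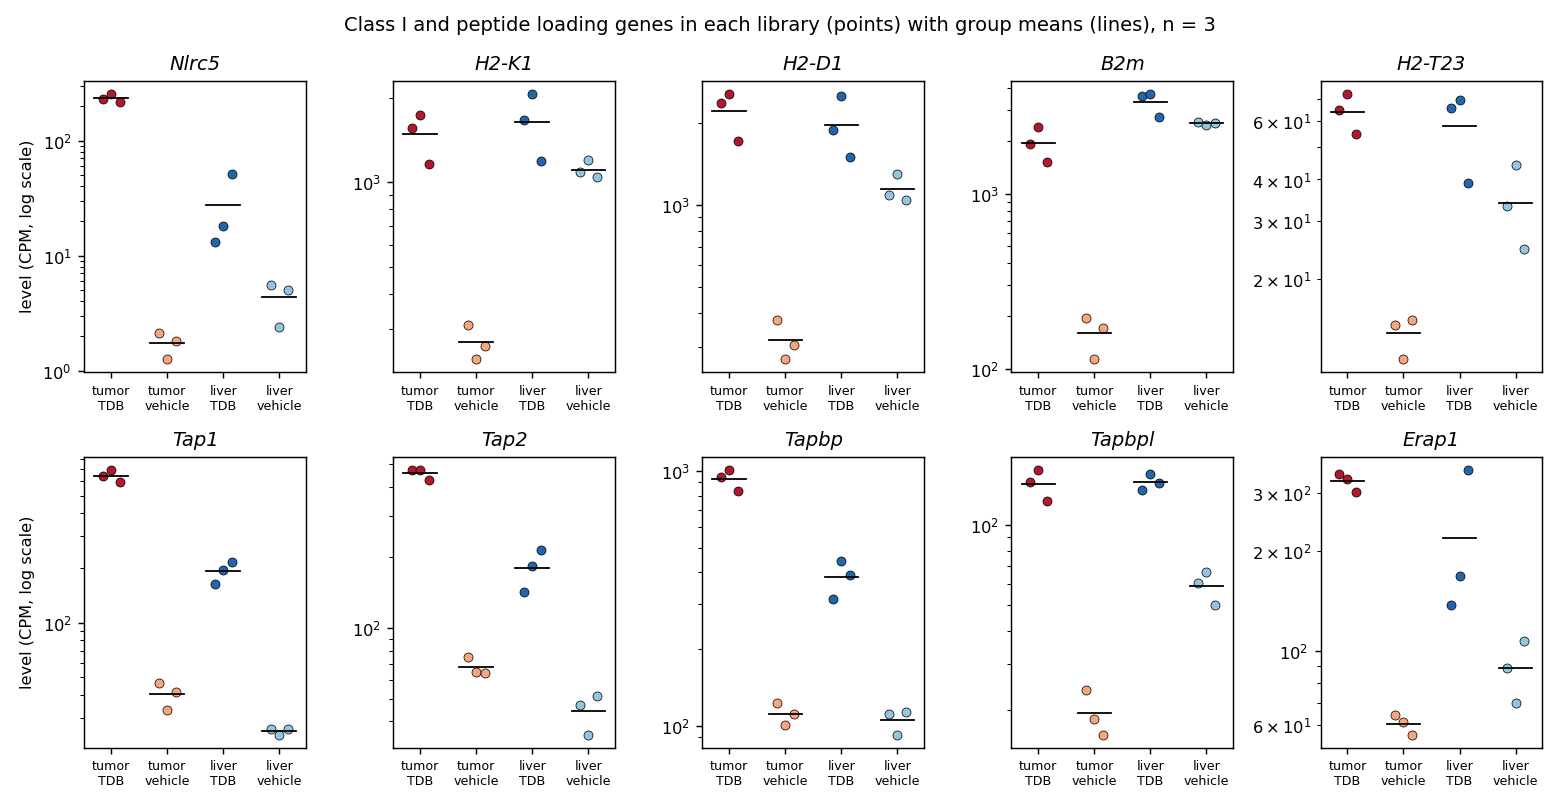
Level of each of the 10 genes (CPM, log scale) in every library, with points for libraries and lines for group means (n = 3). In all 10 panels the tumor TDB points lie above the tumor vehicle points, while the liver groups lie closer together for B2m, H2-K1, H2-D1 and H2-T23.

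Because the genes rose together in tumor, their promoters are shown. RefSeq (GRCm38.p6) gave windows of 250 bases before to 50 bases after the start for 7 of the 10 genes: H2-K1, H2-D1, B2m, H2-T23, Tap1, Tapbp and Erap1. Each stretch below ends before the RefSeq start, except that of Erap1, whose match spans the start, and is written 5′ to 3′ on the gene's strand, from the reference strain and not from FVB/NJ. Capitals mark matches, on either strand, to 4 kinds of motif. They are the kappaB motifs (GGGA, 3 bases of any kind and TCC, or GGGG, 3 bases of any kind and CCC), the ISRE core (GAAA, 2 bases of any kind and GAAA, in the element bound by interferon regulatory factors), the X2 core (TGACG) and the CCAAT box, which on the other strand reads ATTGG. The H2-K1 stretch, which goes with the downstream of its RefSeq starts, lies at chr17:34000334-34000484 (minus strand). The H2-D1 stretch lies at chr17:35262897-35263055 (plus), the B2m stretch at chr2:122147538-122147648 (plus) and the Tap1 stretch at chr17:34187324-34187484 (plus). The H2-T23 stretch lies at chr17:36032739-36032835 (minus) and the Erap1 stretch at chr13:74639839-74639858 (plus). The H2-D1, H2-T23 and Erap1 stretches lie within the spans that GENCODE gives these genes, and the H2-K1 stretch reaches into the span of its gene. The Tapbp window, whose stretch is not shown, also lies within the span of its gene.
H2-K1: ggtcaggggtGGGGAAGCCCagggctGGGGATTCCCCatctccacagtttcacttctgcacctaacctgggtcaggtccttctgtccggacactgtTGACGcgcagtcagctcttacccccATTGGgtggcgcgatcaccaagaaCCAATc
H2-D1: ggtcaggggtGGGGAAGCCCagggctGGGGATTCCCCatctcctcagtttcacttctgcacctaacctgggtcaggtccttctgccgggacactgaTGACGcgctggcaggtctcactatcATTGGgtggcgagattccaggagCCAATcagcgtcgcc
B2m: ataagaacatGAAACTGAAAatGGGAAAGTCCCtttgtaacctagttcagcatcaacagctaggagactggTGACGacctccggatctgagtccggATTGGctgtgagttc
Tap1: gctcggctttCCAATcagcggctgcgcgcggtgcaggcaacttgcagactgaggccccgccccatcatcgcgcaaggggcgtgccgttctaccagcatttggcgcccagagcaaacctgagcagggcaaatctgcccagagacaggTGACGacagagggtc
H2-T23: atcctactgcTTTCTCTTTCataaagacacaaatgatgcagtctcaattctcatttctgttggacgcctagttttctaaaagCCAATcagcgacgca
Erap1: ccaccttcacTTTCACTTTC

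The X2 core was found in the windows of 4 genes (H2-K1, H2-D1, B2m and Tap1), where 20.8% of 32851 RefSeq windows of this length hold it. The CCAAT box was found in 6 of 7 windows, against 37.4% of all windows, and the ISRE core in 3 (B2m, H2-T23 and Erap1), against 3.44%. A kappaB motif was found in H2-K1, H2-D1 and B2m (the GGGG form in 5.21% and the GGGA form in 4.59% of all windows). None of the 7 windows held the gamma-activated sequence (TTC, 3 bases of any kind and GAA), which 8.3% of all windows hold. In H2-K1, H2-D1 and B2m the first base of the X2 core and the first base of ATTGG lay 25 bases apart, a spacing noticed after the matches were seen and held by 31 of 32851 windows (0.0944%). The H2-K1 and H2-D1 stretches were identical at 135 of 160 aligned positions (84.4%). A match to these letters describes the sequence and is not a measured binding site. Only full matches were counted, so a window without one, as for the ISRE core in H2-K1 and H2-D1, may hold a looser form of the element.

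Nlrc5 (ENSMUSG00000074151, chr8:94434356-94527272, plus strand, GRCm38), the class I transactivator, had the largest tumor change of the 10. It had 230.5, 253.4 and 216.1 CPM in tumor TDB libraries, against 2.11, 1.27 and 1.81 CPM in tumor vehicle libraries, where it rests on 67, 41 and 60 counts. The tumor groups lay far apart, with means in a ratio of 135, and the log2 change was 7.15 (SE 0.156, adjusted p = 1.25e-08 by edgeR's quasi-likelihood test), rank 13 of all genes by p. In liver it had 13.1, 18.2 and 51.8 CPM with TDB, against 5.53, 2.39 and 5.07 CPM with vehicle. Every liver TDB library was above the liver vehicle libraries, with liver TDB 3 the highest by far, and the change of 2.71 (SE 0.591, adjusted p = 0.149 by edgeR) was not called. Without liver TDB 3 it was 1.89 (adjusted p = 0.0538 by edgeR). It passed the threshold in 4 of 13 alternative fits, with adjusted p from 0.000197 to 0.526 by the tools named in the processing account. The antisense gene 9330175E14Rik overlaps Nlrc5 by 748 bases and had a tumor mean of 10.8 CPM with TDB against 0.215 CPM with vehicle, and without strand information its reads and those of Nlrc5 cannot be told apart there.

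The classical heavy chains H2-K1 (ENSMUSG00000061232, chr17:33996017-34000347, minus strand) and H2-D1 (ENSMUSG00000073411, chr17:35262730-35267499, plus strand), which hold the peptide, rose in tumor. H2-K1 had 1562, 1735 and 1161 CPM in tumor TDB libraries, against 311.2, 235.2 and 260.6 CPM in tumor vehicle libraries. The groups did not overlap, and the log2 change was 2.54 (SE 0.167, adjusted p = 1.38e-05 by edgeR). H2-D1 had 2357, 2541 and 1713 CPM in tumor TDB libraries, against 376.7, 272.5 and 305.2 CPM in tumor vehicle libraries, again with no overlap, a change of 2.87 (SE 0.179, adjusted p = 1.05e-05 by edgeR). In both genes tumor TDB 3 was the lowest of the TDB tumors, and it was the lowest for each of the other 8 genes too.

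In liver the heavy chains differed less. H2-K1 had 1659, 2055 and 1188 CPM with TDB, against 1086, 1199 and 1043 CPM with vehicle, and liver TDB 3 lay within the vehicle range. H2-D1 had 1880.1, 2509.7 and 1498 CPM with TDB, against 1086, 1300.5 and 1043 CPM with vehicle, with all TDB livers above the vehicle livers. The log2 differences were 0.58 for H2-K1 (SE 0.243, adjusted p = 0.590 by edgeR) and 0.80 for H2-D1 (SE 0.248, adjusted p = 0.357 by edgeR), and neither was called. Without liver TDB 3 they were 0.77 (adjusted p = 0.156 by edgeR) and 0.97 (adjusted p = 0.0995 by edgeR). In the annotated transcripts, 6.87% of 50-base windows of H2-K1 and 13.9% of H2-D1 also occur in other genes, most often in other H2 genes. Their counts are uncertain for this reason, by an amount that was not measured.

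B2m (ENSMUSG00000060802, chr2:122147686-122153083, plus strand), the light chain that class I heavy chains need to reach the cell surface, had the widest gap between vehicle tumor and vehicle liver of the 10. It had 1913, 2389 and 1525 CPM in tumor TDB libraries, against 194.1, 114.2 and 171.2 CPM in tumor vehicle libraries. The groups were far apart, and the log2 change of 3.68 (SE 0.252, adjusted p = 6.40e-05 by edgeR) compares with 2.54 and 2.87 for the heavy chains. Liver TDB libraries had 3610.2, 3692 and 2724 CPM of B2m, against 2576, 2452 and 2537 CPM in liver vehicle libraries. The liver groups did not overlap, yet the difference of 0.43 (SE 0.200, adjusted p = 0.664 by edgeR) was not called. Without liver TDB 3 it was 0.56 (adjusted p = 0.272 by edgeR).

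H2-T23 (ENSMUSG00000067212, chr17:36029773-36032855, minus strand) encodes Qa-1, the nonclassical heavy chain seen by the CD94/NKG2 receptors of NK and T cells, and had the smallest tumor change. It had 65.1, 72.5 and 54.9 CPM in tumor TDB libraries, against 14.5, 11.5 and 15.03 CPM in tumor vehicle libraries. The log2 change was 2.31 (SE 0.132, adjusted p = 6.13e-06 by edgeR) and the groups did not overlap. Liver TDB libraries had 65.7, 69.8 and 39.0 CPM of H2-T23, against 33.2, 44.3 and 24.6 CPM in liver vehicle libraries, and liver TDB 3 lay inside the vehicle range. The liver difference was 0.79 (SE 0.320, adjusted p = 0.563 by edgeR), and 1.02 without liver TDB 3 (adjusted p = 0.134 by edgeR). Of its 50-base windows 29.8% also occur in other annotated genes, the highest share of the 10, so its counts are uncertain by an amount that was not measured.

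The transporter subunits rose in both tissues. Tap1 (ENSMUSG00000037321, chr17:34187553-34197225, plus strand) had 643.7, 692.8 and 595.3 CPM in tumor TDB libraries, against 46.2, 33.0 and 41.6 CPM in tumor vehicle libraries. In liver it had 163.8, 195.4 and 216.1 CPM with TDB, against 25.9, 24.2 and 25.8 CPM with vehicle. The vehicle livers were tightly grouped and all TDB livers lay well above them. The log2 changes were 4.07 in tumor (SE 0.137, adjusted p = 1.78e-07 by edgeR) and 2.95 in liver (SE 0.209, adjusted p = 0.00126 by edgeR), the second a called change in 13 of 13 alternative fits and the largest liver change of the 10. The liver change without liver TDB 3 was 2.86 (adjusted p = 0.000146 by edgeR).

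Tap2 (ENSMUSG00000024339, chr17:34203527-34216321, plus strand), which lies downstream of Tap1 with the immunoproteasome gene Psmb8 between them, had 470.5, 472.5 and 428.9 CPM in tumor TDB libraries, against 75.0, 65.2 and 64.1 CPM in tumor vehicle libraries. In liver it had 141.8, 183.4 and 215.9 CPM with TDB, against 46.8, 35.1 and 51.1 CPM with vehicle. The groups did not overlap in either tissue. The log2 changes were 2.82 in tumor (SE 0.0908, adjusted p = 1.37e-07 by edgeR) and 2.06 in liver (SE 0.248, adjusted p = 0.0183 by edgeR), and without liver TDB 3 the liver change was 1.91 (adjusted p = 0.00556 by edgeR).

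The loading factors also rose in both tissues. Tapbp (ENSMUSG00000024308, chr17:33915899-33929292, plus strand), which encodes tapasin, the bridge between the transporter and the empty class I molecule, had 947.4, 1008 and 835.0 CPM in tumor TDB libraries, against 122.7, 100.6 and 111.4 CPM in tumor vehicle libraries. In liver it had 313.1, 442.4 and 389.8 CPM with TDB, against 111.0, 92.5 and 112.9 CPM with vehicle. All TDB libraries lay above the vehicle libraries of their tissue, with log2 changes of 3.13 in tumor (SE 0.111, adjusted p = 2.25e-07 by edgeR) and 1.89 in liver (SE 0.214, adjusted p = 0.0135 by edgeR). The liver change of Tapbp without liver TDB 3 was 1.87 (adjusted p = 0.00541 by edgeR). Of the 50-base windows of Tapbp, 22.4% occur in other genes, and the gene Zbtb22, which overlaps it on the same strand, differed by -0.16 in tumor (adjusted p = 0.143 by edgeR).

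Tapbpl (ENSMUSG00000038213, chr6:125223933-125231860, minus strand) encodes TAPBPR, a tapasin relative that edits the bound peptide outside the loading complex. It had 145.2, 161.5 and 123.6 CPM in tumor TDB libraries, against 23.8, 18.5 and 16.2 CPM in tumor vehicle libraries. In liver it had 135.9, 156.1 and 144.5 CPM with TDB, against 60.7, 66.3 and 50.1 CPM with vehicle. Both pairs of groups were separate, with log2 changes of 2.95 in tumor (SE 0.157, adjusted p = 1.02e-05 by edgeR) and 1.33 in liver (SE 0.204, adjusted p = 0.0430 by edgeR). Leaving out liver TDB 3 gave a liver change of 1.34 (adjusted p = 0.0152 by edgeR).

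Erap1 (ENSMUSG00000021583, chr13:74639568-74693201, plus strand), the peptidase that trims peptides to class I length, had 342.1, 330.7 and 301.1 CPM in tumor TDB libraries, against 64.5, 61.0 and 56.1 CPM in tumor vehicle libraries. The tumor groups were narrow and separate, with a log2 change of 2.50 (SE 0.0853, adjusted p = 1.82e-07 by edgeR). Liver TDB libraries had 137.7, 168.1 and 351.4 CPM of Erap1, against 89.2, 69.8 and 107.7 CPM in liver vehicle libraries. Liver TDB 3 held more than each other liver library by a wide margin. The liver difference of 1.34 (SE 0.378, adjusted p = 0.298 by edgeR) was not called, and it was 0.81 without that library (adjusted p = 0.178 by edgeR). Cast, an antisense neighbour that shares 13.7% of the 50-base windows of Erap1, changed by 0.21 in tumor (adjusted p = 0.0410 by edgeR).

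**Figure D2:**
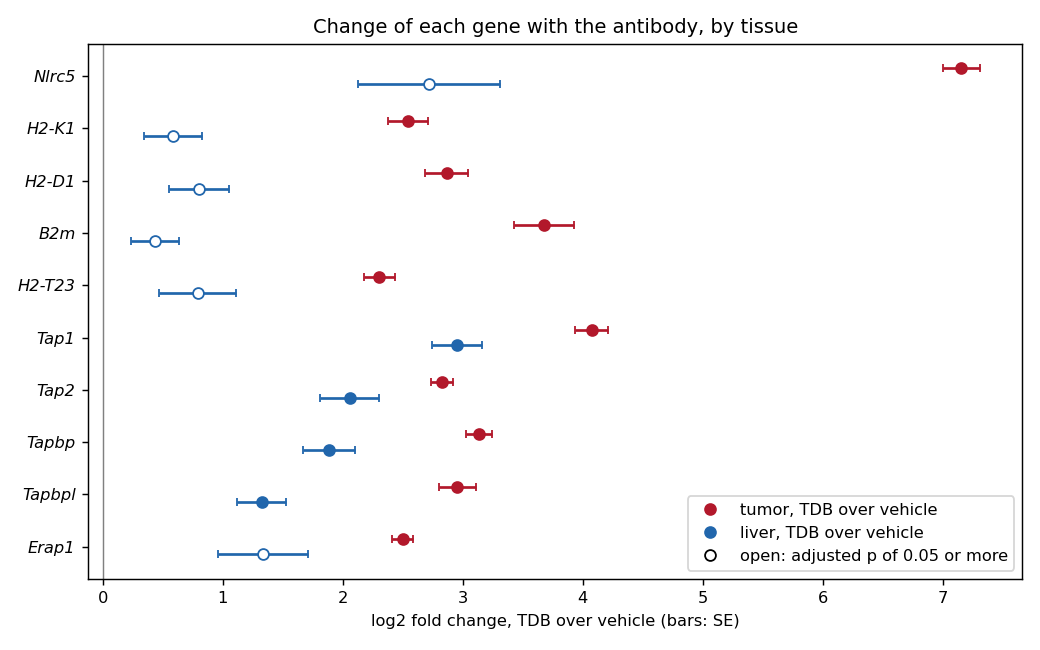
Log2 fold change of each gene, TDB over vehicle, in tumor (red) and liver (blue), with bars for the SE and open points for an adjusted p of 0.05 or more. All 10 tumor points are filled, from 2.31 (H2-T23) to 7.15 (Nlrc5), against 4 filled liver points.

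The liver calls depended on which libraries were kept. Over the 13 alternative fits the log2 changes were 2.86 to 3.05 for Tap1 and 1.91 to 2.20 for Tap2. They were 1.74 to 2.01 for Tapbp and 1.22 to 1.44 for Tapbpl. Leaving out liver vehicle 1, 2 or 3 or liver TDB 2 left 1 of 10 genes called, Tap1. Leaving out liver TDB 1 left 3, and leaving out liver TDB 3 left 4. The highest adjusted p over the 13 alternative fits was 0.170 for Tap2 and 0.148 for Tapbp, both without liver vehicle 1, and 0.328 for Tapbpl, also without liver vehicle 1, against 0.0286 for Tap1. In the tumor fit the count was 10 of 10 in each of the 13 alternatives.

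Liver TDB 3 ranked differently among the TDB livers for longer and shorter class I genes. Of the TDB livers it was the highest for Tap2, Tap1, Erap1 and Nlrc5, with exonic lengths of 3781 to 8493 bases, and the lowest for B2m, H2-D1, H2-T23 and H2-K1, with 860 to 2938 bases. It was between the other two for Tapbpl and Tapbp. Across all genes, the deviation of this library from the mean of its group had a Spearman correlation of 0.548 with exonic length, a description over genes, which are not replicates. Other liver libraries had large values too: -0.497 for TDB 1, -0.375 for TDB 2, 0.1 for vehicle 1, -0.376 for vehicle 2 and 0.385 for vehicle 3. Tumor libraries had -0.265 to 0.145. The deviations in a group of 3 sum to 0, so the values of a group are not independent. The part of length in the values of the liver libraries was not tested beyond leaving out single libraries.

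**Figure D3:**
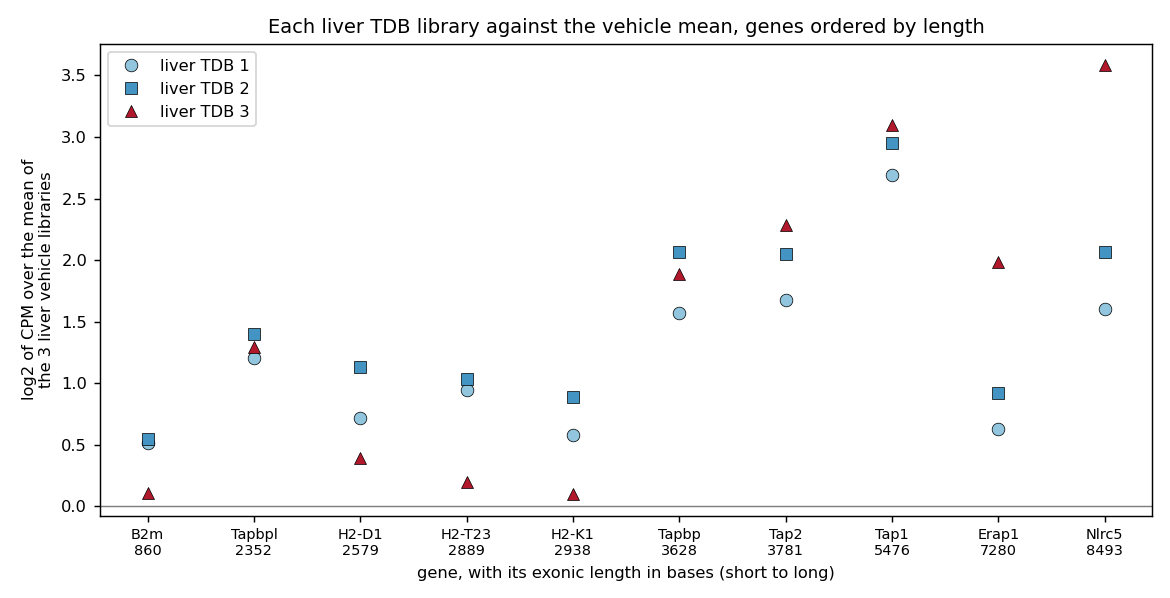
Log2 of the level in each liver TDB library over the mean of the liver vehicle libraries, with the 10 genes ordered by exonic length in bases. The red triangles of liver TDB 3 lie lowest for B2m, H2-D1, H2-T23 and H2-K1 and highest for Tap2, Tap1, Erap1 and Nlrc5.

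The interaction of tissue and treatment was tested with all 12 libraries. It asks whether the change with TDB was larger in tumor than in liver. By the design text both tissues came from the same mice, but no label links a tumor library to a liver library, so the test treats the 12 libraries as independent. The tumor change was larger for 7 of 10 genes by edgeR's quasi-likelihood test, where 1.83% of 16557 genes were called in that direction and 0.658% in the other. The excess of the tumor change over the liver change, on the log2 scale, was 4.41 for Nlrc5 (SE 0.660, adjusted p = 0.00406 by edgeR), 3.20 for B2m (SE 0.365, adjusted p = 0.000662 by edgeR), 2.02 for H2-D1 (SE 0.353, adjusted p = 0.00925 by edgeR) and 1.91 for H2-K1 (SE 0.341, adjusted p = 0.0102 by edgeR). It was 1.58 for Tapbpl (SE 0.258, adjusted p = 0.00649 by edgeR), and these 5 genes were called in 18 of 18 alternative fits. Tapbp, at 1.21 (SE 0.246, adjusted p = 0.0207 by edgeR), was called in 11 of 18, and Tap1, at 1.08 (SE 0.235, adjusted p = 0.0297 by edgeR), in 7 of 18.

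H2-T23, Erap1 and Tap2 had an excess of 1.46 (SE 0.373, adjusted p = 0.0692 by edgeR), 1.13 (SE 0.411, adjusted p = 0.240 by edgeR) and 0.73 (SE 0.261, adjusted p = 0.228 by edgeR) and were not called. Without liver TDB 3, 10 of 10 genes were called, among them Erap1 at 1.72 (adjusted p = 0.00220 by edgeR). Without that library the excess was 5.30 for Nlrc5, 3.15 for B2m, 1.92 for H2-D1, 1.80 for H2-K1, 1.65 for Tapbpl, 1.30 for Tapbp and 1.25 for Tap1. Tap2 (0.95, adjusted p = 0.0489 by edgeR) and H2-T23 (1.31, adjusted p = 0.0233 by edgeR) passed too, and H2-T23 also passed without liver vehicle 3 (adjusted p = 0.0411 by edgeR). Leaving out other single libraries gave 5 or more called genes, and the calls lost were those of Tap1 and Tapbp. Tap1 kept its call only without liver TDB 1, liver TDB 3 or tumor vehicle 1, and Tapbp lost its call without liver vehicle 1 or 3, tumor vehicle 2 or 3, or tumor TDB 1 or 2. Over all alternatives their highest adjusted p were 0.101 for Tap1 and 0.0745 for Tapbp.

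In vehicle-treated mice, tumor was below liver for 6 of 10 genes and above it for 2 by edgeR's quasi-likelihood test, where 36.1% of all genes were called lower and 39.5% higher. B2m had the widest gap, with a mean of 160 ± 41.1 CPM in vehicle tumors against 2522 ± 63.7 CPM in vehicle livers, a log2 difference of -4.05 (SE 0.285, adjusted p = 8.46e-08 by edgeR). H2-K1 (-2.11), H2-D1 (-1.92), Tapbpl (-1.67), H2-T23 (-1.39) and Nlrc5 (-1.39) were also lower in vehicle tumors, with adjusted p from 5.81e-06 to 0.0209 by edgeR. Tap1, at 40.3 ± 6.69 CPM in vehicle tumors against 25.3 ± 0.971 CPM in vehicle livers, and Tap2, at 68.1 ± 6.02 against 44.3 ± 8.27 CPM, were higher, by 0.60 (SE 0.167, adjusted p = 0.00585 by edgeR) and 0.55 (SE 0.185, adjusted p = 0.0166 by edgeR). Tap2 was not called without liver vehicle 2 (adjusted p = 0.0660 by edgeR) or without tumor vehicle 1 (adjusted p = 0.0617 by edgeR). Nlrc5 was not called without liver vehicle 1 (adjusted p = 0.0762 by edgeR), liver vehicle 3 (adjusted p = 0.0645 by edgeR) or tumor vehicle 2 (adjusted p = 0.0711 by edgeR), nor by limma-voom (adjusted p = 0.0642). Tapbp differed by 0.01 (SE 0.174, adjusted p = 0.941 by edgeR) and Erap1 by -0.62 (SE 0.291, adjusted p = 0.0707 by edgeR), neither called. Erap1 was called lower in vehicle tumors without liver TDB 1 (adjusted p = 0.0360 by edgeR) or liver TDB 3 (-0.68, adjusted p = 0.00193 by edgeR), which enter the spread of the fit. It was also called lower with only the 2 vehicle groups in the fit (-0.63, adjusted p = 0.00856 by edgeR). The vehicle libraries of tumor lay wholly above those of liver for 2 genes (Tap1 and Tap2), where 44.2% of all genes did, and wholly below for 7, where 36.9% did.

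With TDB, tumor was above liver for 4 of 10 genes, near the share over all genes, of which 36.6% were called higher. Tumor was below liver for 1 of the 10, where 35.5% of all genes were called lower. Nlrc5 was higher in TDB tumors by 3.02 on the log2 scale (SE 0.454, adjusted p = 8.27e-05 by edgeR), Tap1 by 1.69 (SE 0.169), Tap2 by 1.28 (SE 0.186) and Tapbp by 1.22 (SE 0.175). B2m was lower, with 1942 ± 433 CPM in TDB tumors against 3342 ± 537 CPM in TDB livers, a difference of -0.85 (SE 0.254, adjusted p = 0.00964 by edgeR). The libraries of both tissues overlapped for H2-K1 (-0.20, SE 0.239), H2-D1 (0.10, SE 0.247), Tapbpl (-0.08, SE 0.180), Erap1 (0.51, SE 0.290) and H2-T23 (0.08, SE 0.261), and none of these was called. Among the alternative fits, Erap1 was called higher in TDB tumors under upper quartile scaling (0.66, adjusted p = 0.0482 by edgeR) and by limma-voom (0.63, adjusted p = 0.0470). Without liver TDB 3, Erap1 was called higher too, by 1.04 (adjusted p = 0.000245 by edgeR). The differences without it were 3.84 for Nlrc5, 1.79 for Tap1, 1.44 for Tap2, 1.25 for Tapbp and -0.96 for B2m, all called, and -0.37 for H2-K1, -0.046 for H2-D1, -0.076 for Tapbpl and -0.13 for H2-T23, not called. The TDB libraries of tumor lay wholly above those of liver for 4 genes, where 40.8% of all genes did, and wholly below for 1, where 34.7% did. The vehicle and TDB comparisons of the tissues come from the same fit over 12 libraries.

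The order of the 4 group means differed between genes. Nlrc5, H2-D1, Erap1 and H2-T23 ran in the order tumor TDB, liver TDB, liver vehicle, tumor vehicle, from high to low. Of these, Nlrc5 had no neighbours that overlapped, H2-D1 and Erap1 overlapped between tumor TDB and liver TDB, and H2-T23 overlapped both there and between liver TDB and liver vehicle. Tap1, Tap2 and Tapbp ran in the order tumor TDB, liver TDB, tumor vehicle, liver vehicle, and of their neighbours the vehicle groups of Tapbp overlapped. H2-K1 and Tapbpl were highest in liver TDB, followed by tumor TDB, liver vehicle and tumor vehicle. In both, liver TDB and tumor TDB overlapped, and for H2-K1 tumor TDB and liver vehicle did too. B2m alone had both liver groups above both tumor groups, with no overlap.

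Between genes, levels were compared per kilobase of exonic length, which counts every base in any annotated exon of a gene. The protein-coding transcripts of Tap1 held 2997 distinct 50-base windows for a length of 5476 bases, and those of Tap2 3531 for 3781. For H2-T23 these numbers were 1423 and 2889, and for Nlrc5 8025 and 8493. The order of genes with near levels therefore depends on the length used, and other lengths were not tried. In tumor TDB libraries B2m was the highest, at 2258 ± 503 CPM per kilobase, followed by H2-D1 (854 ± 169) and H2-K1 (506 ± 100). Tapbp had 256 ± 24.2 CPM per kilobase there, Tap2 121 ± 6.50 and Tap1 118 ± 8.90. Tapbpl, Erap1, Nlrc5 and H2-T23 were the lowest, with 61.0, 44.6, 27.5 and 22.2 CPM per kilobase. In tumor vehicle libraries Nlrc5 had 0.203 ± 0.0502 CPM per kilobase, the lowest level of the 10.

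The balance between partner genes shifted in tumor. The size of each ratio depends on the exonic lengths used, which are the same in all groups. H2-K1 and H2-D1 summed over B2m, per kilobase, gave 0.650, 0.567 and 0.597 in tumor TDB libraries, against 1.12, 1.40 and 1.04 in tumor vehicle libraries. The groups did not overlap, and an exact two-sided permutation test gave p = 0.1, the smallest that 3 against 3 libraries allow. In liver this ratio averaged 0.336 ± 0.0462 with TDB and 0.280 ± 0.0344 with vehicle, with overlapping groups (exact permutation p = 0.3). Tap1 over Tap2 per kilobase was 0.945, 1.01 and 0.958 in tumor TDB libraries, against 0.426, 0.350 and 0.448 in tumor vehicle libraries. In liver it was 0.797, 0.736 and 0.691 with TDB, against 0.383, 0.475 and 0.348 with vehicle. Both tissues had no overlap (exact permutation p = 0.1 in each).

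H2-K1 over H2-D1 per kilobase was lower with TDB in both tissues, at 0.592 ± 0.00898 in tumor TDB against 0.744 ± 0.0169 in tumor vehicle, and 0.730 ± 0.0404 in liver TDB against 0.855 ± 0.0396 in liver vehicle (exact permutation p = 0.1 in each). The summed level of the 10 genes was 8429 ± 1368 CPM in tumor TDB against 1062 ± 160 CPM in tumor vehicle, a ratio of 7.93. In liver it was 8143 ± 1336 CPM with TDB against 5136 ± 143 CPM with vehicle, a ratio of 1.59 (exact permutation p = 0.1 in each tissue). Between the tissues with TDB it differed by less than the spread of the libraries (exact permutation p = 0.7).

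**Figure D4:**
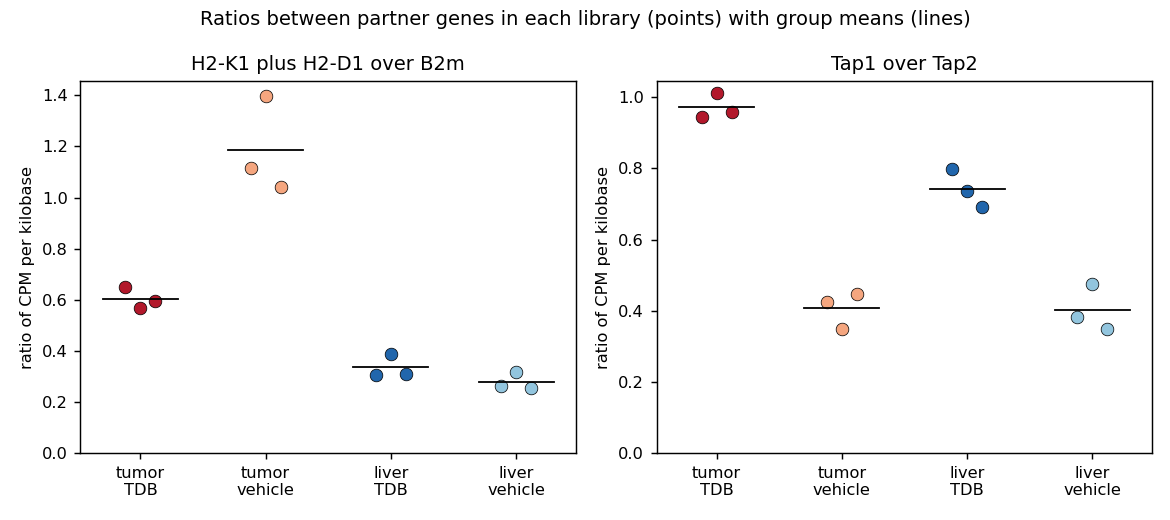
Ratio of H2-K1 plus H2-D1 to B2m (left) and of Tap1 to Tap2 (right), both from CPM per kilobase, in each library (points) with group means (lines). The left ratio is about 0.605 in tumor TDB against 1.18 in tumor vehicle, and the right ratio is 0.972 against 0.408.

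Other genes of the pathway were read from the same fits, in lists chosen with earlier results of these data known. Of 15 tested class I and class I-like genes outside the 10, 12 rose in tumor, none fell and 3 were not called, with a median log2 change of 2.46. H2-Q6 (4.13, SE 0.147), H2-Q7 (4.09, SE 0.226), H2-Q4 (3.06, SE 0.137) and H2-M3 (3.05, SE 0.198), all of the H2 region, changed most. Cd1d1, which presents lipids, rose by 1.08 (SE 0.217). The 3 that were not called were Mr1 (0.17), Fcgrt (-0.17) and Hfe (-0.08). Mr1 presents vitamin metabolites, Fcgrt is the neonatal Fc receptor and Hfe regulates iron uptake. In liver 1 of 15 was called, H2-Q6 at 1.70 (SE 0.246, adjusted p = 0.0402 by edgeR), and the median was 0.40. H2-Q10, a secreted class I chain made by liver, had 11.01 ± 1.65 CPM in tumor TDB against 3.08 ± 0.624 CPM in tumor vehicle, and 2274 ± 885 CPM in liver TDB against 2582 ± 587 CPM in liver vehicle.

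The immunoproteasome subunits Psmb8, Psmb9 and Psmb10 and the PA28 subunits Psme1 and Psme2, which shape the peptides, rose in tumor in 5 of 5, with a median of 3.95. Psmb9 averaged 224 ± 16.8 CPM in tumor TDB against 9.29 ± 2.03 CPM in tumor vehicle (log2 change 4.67, SE 0.159), and Psme2 changed least (2.33, SE 0.103). In liver Psmb9 (2.87, SE 0.336) and Psmb8 (2.50, SE 0.352) were called, 2 of 5. Of 8 chaperones and other peptidases, 3 rose in tumor: Lap3, a cytosolic aminopeptidase (1.75, SE 0.113), Lnpep, an endosomal trimming peptidase (1.00, SE 0.248), and Pdia3, which encodes ERp57 (0.43, SE 0.0961). Calreticulin (Calr, 0.21) and calnexin (Canx, 0.16) were not called, and the median of the 8 was 0.25. In liver 0 of the 8 were called by edgeR and 3 had an unadjusted p under 0.05, where 8.09% of all genes did, with a median of 0.55.

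Of 15 genes of interferon-gamma signaling and class I regulation, 6 rose, 2 fell and 7 were not called in tumor, with a median of 0.16. The cytokine gene Ifng averaged 5.00 ± 0.809 CPM in tumor TDB, from 542 counts in all, and had 0 counts in the tumor vehicle libraries. Irf1, a transcription factor downstream of the receptor, rose by 4.69 (SE 0.10). Irf2 (1.49), Jak2 (1.31) and Rfx5 (0.83) rose, while the other RFX subunits Rfxank (-0.39) and Rfxap (-0.31) fell. The receptor chains Ifngr1 (0.02) and Ifngr2 (0.16) were not called. In liver 2 of 14 tested rose, among them Irf1 (1.81, SE 0.218). Ifng was too low to be tested there, with 12 counts over the liver TDB libraries and 3 over the liver vehicle libraries. Irf1 had a larger tumor than liver change (2.84, SE 0.235, adjusted p = 8.64e-05 by edgeR's interaction test).

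Among receptors that bind class I, the 4 tested of 7 rose in tumor: the CD8 chains Cd8a (5.19, SE 0.564) and Cd8b1 (3.52, SE 0.640), the CD94 gene Klrd1 (4.01, SE 0.590) and the inhibitory receptor Pirb (1.95, SE 0.249). In liver 1 of 4 tested rose, Cd8a (2.98, SE 0.445).

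**Figure D5:**
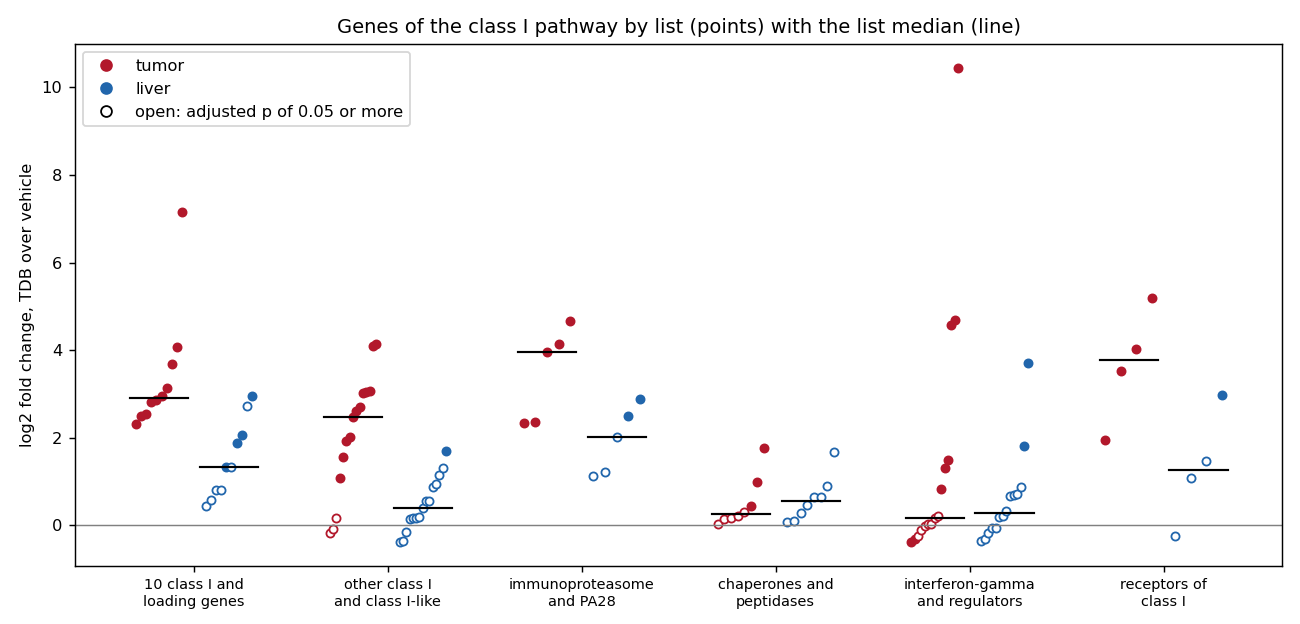
Log2 fold change, TDB over vehicle, of the 10 genes and of the other genes of the pathway, by list, in tumor (red) and liver (blue). Lines mark list medians, and open points have an adjusted p of 0.05 or more. The medians in tumor run from 0.16 (interferon-gamma and regulators) to 3.95 (immunoproteasome and PA28).

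Markers of immune cells moved with the tumor groups. In a bulk library, more cells of a type and more RNA per cell cannot be told apart. The leukocyte marker Ptprc had 46.8 to 53.7 CPM in tumor TDB against 6.70 to 11.1 CPM in tumor vehicle. The T cell list summed to 8.18 to 15.1 CPM against 2.08 to 3.96 CPM, with 7 of 8 markers called higher and Cd3e at 0 in tumor vehicle. The marker not called was Cd247 (log2 change -0.41), with a mean of 1.16 CPM in tumor TDB against 1.63 CPM in tumor vehicle. The NK list summed to 9.25 to 14.0 CPM against 0.154 to 0.315 CPM, with 4 of 4 tested markers higher. Neutrophil markers summed to 25.0 to 49.3 CPM against 3.18 to 7.83 CPM (3 of 4 tested higher, S100a9 not called). Ly6g, too low to be tested, had 3 counts over the tumor TDB libraries and 0 over the tumor vehicle libraries. B cell markers, too low to be tested, summed to 0.800 to 1.10 CPM against 0.0944 to 0.211 CPM. Macrophage and monocyte markers summed to 190 to 279 CPM in tumor TDB against 111 to 174 CPM in tumor vehicle (4 of 6 higher), and dendritic cell markers to 39.0 to 39.7 CPM against 14.8 to 17.2 CPM (3 of 4 tested higher, Clec9a at 0 in tumor vehicle). Mammary epithelium markers summed to 15953 to 16591 CPM in tumor TDB against 14205 to 16768 CPM in tumor vehicle, with 2 of 6 called lower.

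In liver the T cell list summed to 33.4 to 35.9 CPM with TDB against 15.6 to 18.5 CPM with vehicle, with 0 of 8 markers called by edgeR and 7 of 8 at an unadjusted p under 0.05, as were 8.09% of all genes tested in liver. NK markers summed to 9.87 to 18.1 CPM with TDB against 3.48 to 8.88 CPM with vehicle (0 of 2 tested called). Dendritic cell markers summed to 12.2 to 18.9 CPM against 7.65 to 11.3 CPM (0 of 3 tested called). The mammary epithelium list summed to 606 to 881 CPM against 382 to 487 CPM (0 of 6 called). Most of that was Krt18, with a mean of 577 ± 166 CPM with TDB against 313 ± 60.4 CPM with vehicle. Epcam had means of 2.10 against 2.23 CPM and Erbb2 2.18 against 1.91 CPM. Csn3 varied widely, at 4.77 ± 5.40 against 0.829 ± 0.967 CPM. Ptprc had 14.1 to 56.7 CPM with TDB against 13.1 to 15.4 CPM with vehicle. B cell markers were lower, at 5.98 to 8.98 CPM with TDB against 9.23 to 9.87 CPM with vehicle (0 of 4 called). The groups overlapped for Kupffer cell markers (497 to 832 against 648 to 986 CPM, 0 of 4 called). They also overlapped for macrophage and monocyte markers (401 to 450 against 335 to 423 CPM, 0 of 6 called). Neutrophil markers overlapped too (27.8 to 48.0 against 19.1 to 37.1 CPM, 0 of 4 tested called). Hepatocyte markers summed to 139838 to 178816 CPM with TDB against 217005 to 261035 CPM with vehicle, with 0 of 4 called by edgeR. The part of these cells in the class I changes of either tissue was not tested.

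Genes outside the 10 whose profile was nearest to the median profile of the 10 were found by the root mean square difference of centred log2 CPM over the 12 libraries, among 16557 genes. They were Parp9 (0.133), Themis2 (0.180), Trafd1 (0.196), Irf8 (0.232) and Eif4e3 (0.254), in log2 units. Of the 10 genes themselves, Tapbpl lay nearest to that median profile (0.248) and Nlrc5 farthest from it (1.80), with B2m (1.11) and Tap1 (1.08) next.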

How the data were processed

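The authors deposited a table of whole-number read counts per Ensembl gene for 12 libraries (3 each of tumor TDB, tumor vehicle, liver TDB and liver vehicle, grouped by sample title), not normalized. Per the submitters' processing notes, GSNAP, limma and GRCm38 were used, with no version and no role stated. For the read counter, its annotation and its strand setting, nothing is given in the sources used here, and overlapping, antisense and near-identical genes are therefore uncertain. The deposited FPKM table was not used. Symbols, positions and exonic lengths came from GENCODE M21 (GRCm38). No pair of replicates agreed within sampling noise.

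Counts were tested in R 4.3.3 with edgeR 4.0.16 (TMM, filterByExpr with a minimum count of 10 and total of 15, robust quasi-likelihood F test, Benjamini-Hochberg over all genes tested, threshold 0.05). Tumor and liver were fitted separately with 6 libraries each. The interaction and the tissue contrasts came from 1 fit of 12 libraries with 4 group means. The SE is the log2 change divided by the square root of F. Alternatives were other scalings, no low-count filter, DESeq2 1.42.0, limma-voom (limma 3.58.1), other sets of libraries, a replicate block and leaving out each library. The functions were tested on simulated data. Depth was 18460159 to 29396324 counts per library. P-values measure the spread between the libraries of a group, 3 mice per treatment by the series' design text.

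The 10 genes and the gene lists were chosen with earlier results of these data known. By rule, the text names all 10 genes, genes of the lists, and the 5 nearest profiles. Of 120 listed symbols 1 had no identifier, and 1 gene of the regulator list is counted but not reported here. Motifs were searched on both strands of RefSeq promoter windows.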

Additional observations from a re-analysis of the deposited data

Results flagged for a closer look

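The change with TDB differed between tumor and liver in 7 of the 10 genes by edgeR's interaction test, which treats the 12 libraries as independent although the design text gives the same mice for both tissues. The tumor change minus the liver change, on the log2 scale, was 4.41 for Nlrc5, 3.20 for B2m, 2.02 for H2-D1, 1.91 for H2-K1, 1.58 for Tapbpl, 1.21 for Tapbp and 1.08 for Tap1. In each of the 7 genes all 3 tumor TDB libraries lay above all 3 tumor vehicle libraries. In liver this held for 6 of them, and the H2-K1 groups overlapped. Leaving out liver TDB 3 gave 10 of 10 genes called, and leaving out other libraries gave as few as 5. Why the tissues differ was not tested. Summed T cell, NK and dendritic cell markers were higher with TDB in both tissues. Neutrophil, macrophage and monocyte markers were higher with TDB in tumor and overlapped in liver. B cell markers were higher with TDB in tumor and lower in liver.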

How the results depend on the processing

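In tumor all 10 genes were called higher under all 13 alternatives. In liver 1 to 4 were called when 1 library was left out, against 4 with all libraries, and 4 to 6 under the other alternatives. In the interaction these counts were 5 to 10 and 5 to 9, against 7. In vehicle mice 1 or 2 genes were called higher in tumor when 1 library was left out, against 2. Differences near 0 changed sign. Leaving out single libraries gave -0.059 to 0.090 for Tapbp in vehicle mice, and with TDB -0.37 to 0.00090 for H2-K1, -0.046 to 0.32 for H2-D1, -0.13 to 0.23 for H2-T23 and -0.17 to 0.019 for Tapbpl, which was 0.051 under upper quartile scaling. That scaling moved the median of all genes by 0.136 in the TDB comparison of the tissues. The cause of these shifts was not tested.

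Counts over all genes moved more. In liver 70 genes were higher and 3 lower, against 14 to 151 and 0 to 12 when 1 library was left out, 292 and 60 with DESeq2, 133 and 12 without the low-count filter, and 282 and 41 with all 12 libraries in 1 fit. Upper quartile scaling called 5 lower in liver. In tumor 2437 were higher and 2019 lower, against 1068 and 627 in the fit of 12 libraries, and 1145 lower without tumor TDB 2. The interaction called 303 higher and 109 lower, against 196 to 525 and 45 to 177 when 1 library was left out, and 582 and 315 with DESeq2.

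Same-numbered libraries correlated at -0.058 to 0.464 between the treatments of a tissue, which come from different mice. Between the tissues of a treatment they correlated at -0.039 to 0.096. Number 3 correlated best with number 3 in each pair of groups, and number 1 with number 1 in none. Whether the numbers pair the samples is therefore not known. A replicate block called 6 genes in liver (Nlrc5 and Erap1 added), 10 in tumor and 5 in the interaction, where Tap1 and Tapbp were lost, and over all genes 291 higher and 59 lower in liver and 42 lower in the interaction. With 3 libraries per group, an exact test of a single value cannot go below 0.1. Depth limits Nlrc5 in tumor vehicle, which rests on 41 to 67 counts a library.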

Other observations

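Several genes beside the 10 share sequence or position with them. The RefSeq windows of Tap1 and Psmb9 share bases, as the genes run in opposite directions and overlap by 212 bases on chromosome 17. Psmb9 had 233, 235 and 204.9 CPM in tumor TDB libraries, against 11.1, 7.10 and 9.67 CPM in tumor vehicle libraries. In liver it had 383.8, 369.1 and 195.2 CPM with TDB, against 45.4, 53.1 and 33.0 CPM with vehicle, so liver TDB 3 was the lowest TDB liver for Psmb9 and the highest for Tap1. Tap1 ends 495 bases before Psmb8, and Psmb8 ends 2072 bases before Tap2. Psmb8 had 308.6 CPM in liver TDB 3, against 559.3 and 616.2 CPM in the other TDB livers. Fcgrt averaged 13.0 CPM in tumor TDB against 15.4 CPM in tumor vehicle, and 323 CPM in liver TDB against 422 CPM in liver vehicle.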
